A study of Mus musculus with 15 samples.

Results

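The Cap'n'collar (CNC) factors NFE2L1, NFE2L2 and NFE2L3 and the related BACH1 and BACH2 are basic leucine zipper proteins that bind DNA as heterodimers with a small Maf protein, MAFF, MAFG or MAFK. The NFE2L proteins mainly activate and the BACH proteins mainly repress genes with antioxidant response elements, and small Maf proteins lack a transactivation domain of their own. KEAP1 is the adaptor that hands NFE2L2 to a CUL3 ubiquitin ligase for degradation under resting conditions, NFE2L1 is the main transcriptional regulator of proteasome subunits, and NFE2L3 is the least studied of the NFE2L proteins.

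*Nfe2l3* and these partner genes were followed in the developing brain of mice with a K228E point mutation in TBR1, a T-box transcription factor of early-born cortical neurons. The 9 genes were *Nfe2l3*, *Nfe2l1*, *Nfe2l2*, *Bach1*, *Bach2*, *Maff*, *Mafg*, *Mafk* and *Keap1*, and all 9 were found among the 19475 genes of the table and passed the filter on low values. *Nfe2l3* was chosen by its lower values in homozygous embryos of this same data set. Its values are therefore given as a description, without a test, in all 3 comparisons, since these share embryos. The other 8 genes were taken because they belong to the same family or regulate it.

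Brain RNA of 15 C57BL/6J embryos at E16.5 was profiled by RNA-Seq, in 3 groups of 5 embryos that were WT, heterozygous (*Tbr1* +/K228E) or homozygous (*Tbr1* K228E/K228E). Each genotype comprised 3 females and 2 males. The mutation is a knock-in in exon 1 of *Tbr1*, carried by all cells of the mutant embryos, from which the neomycin cassette had been removed by a cross to protamine-Cre mice, and no treatment was part of any group. The labels name the tissue as brain and the text of the study as forebrain.

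All 10 forebrain and neuron markers were present in every embryo. The embryos also differed in markers of neighboring tissue. The summed normalized read count of 16 Hox genes, which mark hindbrain and spinal cord, had a lowest, median and highest value of 4.80, 391 and 3274 in WT, 0.66, 6.65 and 3958 in heterozygous, and 4.67, 53.7 and 575 in homozygous embryos. *Hoxb7* and *Hoxc6* were listed at 0 in every WT embryo and *Hoxb7* in every homozygous embryo. The sum of 12 meningeal genes ranged from 529 to 34223, from 4614 to 19646, and from 713 to 23028 in the same order of genotypes, with no gene at 0 throughout a genotype. In RNA from whole tissue, fewer cells of a type and less RNA per cell cannot be told apart. The mean normalized read count of *Tbr1* itself was 3537 in WT, 6269 in heterozygous and 11366 in homozygous embryos, and the read counts do not show the point mutation.

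The genes lie on 8 chromosomes of GRCm38. *Nfe2l3* (ENSMUSG00000029832) spans 51432670 to 51458768 on the plus strand of chromosome 6, with 5 merged exons and 2973 exonic bases. *Bach2* (ENSMUSG00000040270) spans 32238804 to 32586108 on the plus strand of chromosome 4, and *Mafk* (ENSMUSG00000018143) spans 139791513 to 139802653 on the plus strand of chromosome 5. The transcripts of *Nfe2l3*, *Nfe2l2*, *Bach1* and *Maff* shared no stretch of 31 bases with transcripts of another gene. The share of such stretches was 0.147% for *Nfe2l1*, 1.68% for *Mafg*, 3.60% for *Mafk*, 6.37% for *Bach2* and 9.02% for *Keap1*, mostly with an overlapping gene. The library kit does not mark strand, so reads of *Bach2* and *Keap1* cannot be told apart from those of their antisense partners *Bach2os* and *Gm16754* over 5.4% and 10.87% of their exonic bases.

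The 250 bases upstream of the annotated start are printed for *Nfe2l3*, whose level was lower in homozygous embryos, and for *Maff*, in which alone a T-box motif was found. The sequences are from RefSeq (GRCm38.p6) and run 5′ to 3′ toward the start. Capitals mark matches to a motif on either strand.

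*Nfe2l3*, chr6:51432419-51432668, plus strand: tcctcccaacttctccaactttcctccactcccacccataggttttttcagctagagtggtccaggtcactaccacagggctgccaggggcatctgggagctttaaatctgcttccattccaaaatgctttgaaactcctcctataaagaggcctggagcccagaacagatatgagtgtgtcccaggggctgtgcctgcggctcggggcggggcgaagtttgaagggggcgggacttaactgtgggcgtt

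*Maff*, chr15:79348152-79348401, plus strand: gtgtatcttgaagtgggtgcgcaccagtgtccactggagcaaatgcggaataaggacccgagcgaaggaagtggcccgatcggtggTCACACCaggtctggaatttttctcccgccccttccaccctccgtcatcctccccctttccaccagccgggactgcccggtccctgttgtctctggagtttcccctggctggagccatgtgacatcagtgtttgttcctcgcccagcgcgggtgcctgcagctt

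The motifs searched were the T-box motif GGTGTGA, the small Maf and CNC site TGACTCAGC, and TGANNNNGC. The last is a loose form of the antioxidant core and contains the second motif. Each N stands for any base, so a match to it need not be an antioxidant element. The 3 motifs occurred in 3.33%, 0.39% and 35.2% of 32851 upstream windows of the same length over all genes. The *Nfe2l3* window held none of the 3 motifs and had a GC content of 55.2%. The *Maff* window held the T-box motif at position -164, as TCACACC, which is the motif read on the other strand. In *Nfe2l2* the loose antioxidant form was found as TGACTCCGC at position -240. The loose form was also found upstream of at least 1 start of *Nfe2l1*, *Bach2*, *Maff*, *Mafg*, *Mafk* and *Keap1*. All 9 genes matched the RefSeq table, where *Nfe2l1* has 5 starts and *Maff* has 3. A match describes letters only, and a missing match says only that these letters are not in this window.

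To compare levels between genes, normalized read counts were divided by the length of the merged exons. In WT embryos *Nfe2l1* had the highest level, with 939 ± 129 (SD, n = 5) normalized read counts per kb, followed by *Mafg* with 635 ± 35.5 (SD, n = 5). *Bach1* (481 ± 26.6), *Keap1* (458 ± 29.5) and *Bach2* (402 ± 42.7) formed a middle range in which neighbors in the order overlapped between embryos. *Nfe2l3* came sixth with 183 ± 26.2 (SD, n = 5) per kb and overlapped with *Mafk* at 135 ± 10.2. *Nfe2l2* had 77.0 ± 12.6 (SD, n = 5) per kb and *Maff* 37.2 ± 5.70, so that the mean of *Nfe2l1* was 25.2 times that of *Maff*.

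**Figure D1:**
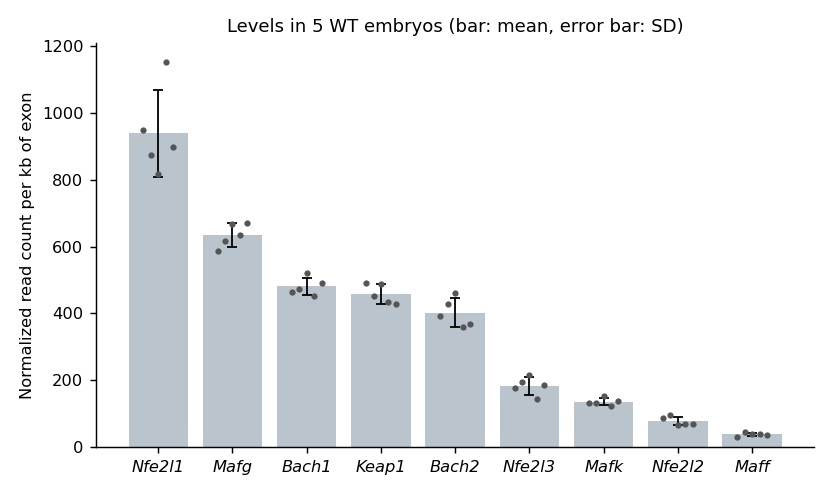
Normalized read count per kb of merged exon (y axis) of the 9 genes (x axis) in 5 WT embryos, with bars for the mean, error bars for the SD and points for embryos. *Nfe2l1* stood highest at 939 per kb, *Nfe2l3* was sixth at 183, and *Maff* was lowest at 37.2.

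*Nfe2l3* was lower in homozygous than in WT embryos and was at a similar mean level in heterozygous and WT embryos. In replicates 1 to 5 its normalized read counts were 524, 574, 639, 427 and 552 in WT embryos. In heterozygous embryos they were 449.7, 529.8, 516, 595 and 570.0. In homozygous embryos they were 274, 390.2, 374, 406 and 352. The highest homozygous embryo stood below the lowest WT embryo and the lowest heterozygous embryo, and the other 2 genotypes overlapped.

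WT embryos had a mean *Nfe2l3* level of 543 ± 77.9, heterozygous embryos of 532 ± 55.8 and homozygous embryos of 359 ± 51.8 normalized read counts (SD, n = 5 each). The log2 fold change in homozygous embryos was -0.60 (standard error 0.12) against WT embryos, or 0.661-fold, and -0.57 (standard error 0.12) against heterozygous embryos, or 0.673-fold. Between heterozygous and WT embryos it was -0.02 (standard error 0.12). Of all 16507 tested genes, 0.594% did not overlap between homozygous and WT embryos, and 0.273% did so with the lower values in homozygous embryos. Against heterozygous embryos these shares were 0.878% and 0.388%, and 0.26% of genes did not overlap between heterozygous and WT embryos. These background shares are given beside *Nfe2l3* for scale, since its pattern is what led to its choice.

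The lower values of *Nfe2l3* were present in both sexes. Among females the mean was 579 in WT and 346 in homozygous embryos (3 each), and among males it was 489 and 379 (2 each). Within either sex every homozygous embryo lay below every WT embryo. This follows from the lack of overlap over all embryos and adds no support. In heterozygous embryos the mean was 498 in females and 582 in males.

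In each genotype the embryo with the highest Hox sum had the lowest *Nfe2l3* value. These were WT replicate 4 (Hox sum 3274, *Nfe2l3* 427), heterozygous replicate 1 (3958 and 449.7) and homozygous replicate 1 (575 and 274). Without these 3 embryos the mean *Nfe2l3* level was 572.5 ± 49.1 in WT, 553 ± 36.4 in heterozygous and 381 ± 23.2 in homozygous embryos (SD, n = 4 each). The log2 fold change between homozygous and WT embryos was then -0.59 (standard error 0.08). With scores for Hox and meningeal genes as added terms it was -0.69 (standard error 0.09). The 3 embryos left out were the lowest of their genotypes for *Nfe2l3*. The smaller SDs and standard error without them come with their removal and add no support. The part of neighboring tissue in the *Nfe2l3* values was not tested.

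**Figure D2:**
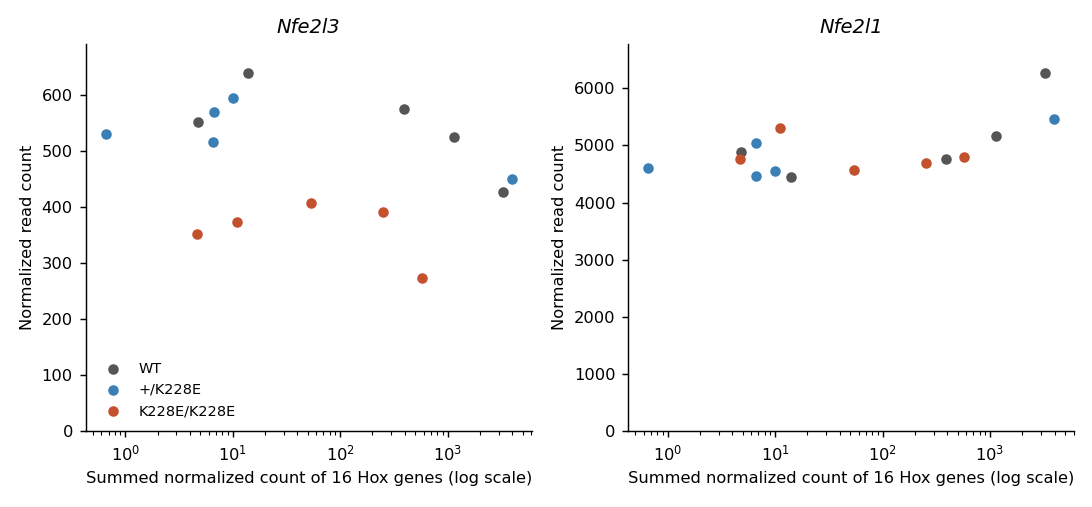
Normalized read counts of *Nfe2l3* (left) and *Nfe2l1* (right) on the y axes against the summed normalized read count of 16 Hox genes on log-scaled x axes, 1 point per embryo and 1 color per genotype. The homozygous embryos lie at 274 to 406 for *Nfe2l3* along the whole range of their Hox sums, and the highest Hox embryo of each genotype is its lowest for *Nfe2l3*.

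As a share of the 5 CNC and BACH transcripts, per kb of exon, *Nfe2l3* made up 8.80% ± 1.40 (SD, n = 5) in WT, 8.62% ± 1.06 in heterozygous and 5.91% ± 0.89 in homozygous embryos. The share of *Bach2* was 19.3%, 21.8% and 23.9%, and that of *Nfe2l1* was 45.0%, 42.7% and 43.3%. The summed level of the 5 transcripts was 2081 ± 59.4, 2080 ± 76.5 and 2048 ± 115 normalized read counts per kb (SD, n = 5), so that the sums differed by less than the spread between embryos. These shares use the values that chose *Nfe2l3* and are a description.

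**Figure D3:**
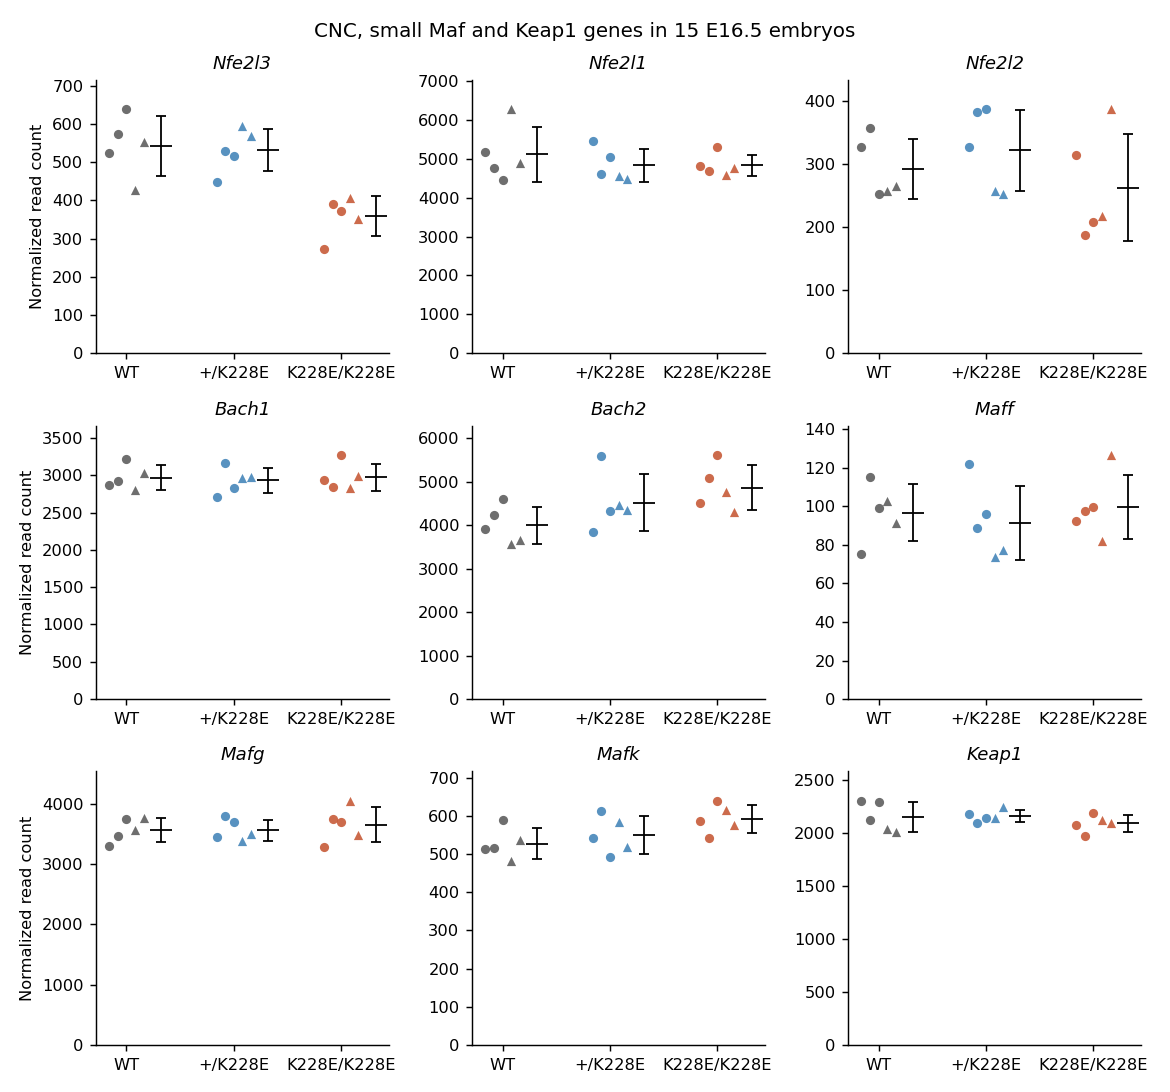
Normalized read counts (y axes, from 0) of the 9 genes in the 15 embryos by genotype, with circles for females, triangles for males, and a bar with error bars for the mean and SD. Only for *Nfe2l3* do the homozygous embryos (274 to 406) stand apart from the WT (427 to 639) and heterozygous embryos (449.7 to 595). *Nfe2l3* was chosen by its lower values in homozygous embryos.

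Of the other 8 genes, 0 passed an adjusted p of 0.05 in any of the 3 comparisons (limma with Benjamini–Hochberg correction over all tested genes). The background was small as well, with 0.127% of all tested genes past this threshold between homozygous and WT embryos, 0% between heterozygous and WT embryos, and 0.0788% between homozygous and heterozygous embryos. At an unadjusted p under 0.05, 2 of the 8 genes, *Bach2* and *Mafk*, were higher in homozygous than in WT embryos, against 3.23% of all tested genes in either direction. In the other comparisons the count was 0 of 8, against 1.79% of all genes between heterozygous and WT embryos and 3.3% between homozygous and heterozygous embryos. None of the 8 genes was free of overlap between any pair of genotypes. Over all tested genes the share without overlap was also small. It was 0.594% between homozygous and WT, 0.26% between heterozygous and WT, and 0.878% between homozygous and heterozygous embryos.

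Among the other activators, *Nfe2l1* had normalized read counts from 4441 to 6274 over the 5 WT embryos, from 4470.2 to 5461 over the heterozygous embryos and from 4569 to 5303 over the homozygous embryos. The highest WT and heterozygous values came from the same 2 embryos that had the highest Hox sums, and the genotypes overlapped. *Nfe2l1* had a log2 fold change in homozygous against WT embryos of -0.07 with a 95% interval from -0.25 to 0.10 (adjusted p = 1, limma).

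*Nfe2l2*, which encodes the stress-responsive factor NRF2, had normalized read counts of 327, 358, 252, 258 and 266 in WT embryos. They were 327, 383, 388, 258 and 254 in heterozygous embryos and 315, 188, 209, 218 and 387 in homozygous embryos. The homozygous embryos spanned the widest range, with a coefficient of variation of 32.2% against 16.3% in WT and 20.2% in heterozygous embryos, and the genotypes overlapped. The log2 fold change was -0.19 (95% interval -0.60 to 0.22) against WT embryos and -0.32 (-0.73 to 0.09) against heterozygous embryos, with adjusted p of 1 and 0.996 (limma), so that a change of the size of that of *Nfe2l3* lay at the edge of or within these intervals.

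The level of *Nfe2l2* moved with markers of vessels and blood between embryos of the same genotype. Across 15 embryos, after subtraction of the genotype means of the log2 values, Pearson's r of *Nfe2l2* was 0.788 with the mean log2 level of 8 endothelial markers (Spearman's rho 0.843), 0.784 with 9 microglia markers (0.786), 0.721 with 9 erythroid markers (0.675) and 0.693 with 12 meningeal markers (0.739). Without the 2 embryos farthest from the median of each score, r was 0.845, 0.649, 0.701 and 0.763. The endothelial sum was 5359 to 9752 in WT, 6491 to 9601 in heterozygous and 5407 to 10630 in homozygous embryos, with no marker at 0 throughout a genotype. The points share the libraries and their scaling, 63 such correlations of a gene and a score were computed, and the part of these tissues in the *Nfe2l2* values was not tested.

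Among the repressors, *Bach2* was measured at 3903, 4241, 4596, 3570.1 and 3665 normalized read counts in WT embryos. In heterozygous embryos the values were 3841, 5600.1, 4323, 4468 and 4352, and in homozygous embryos they were 4520.1, 5087, 5620.3, 4777 and 4308.5. Of the homozygous embryos 3 exceeded every WT embryo and 2 lay within the WT range. The mean was 3995 ± 424, 4517 ± 651 and 4862 ± 514 (SD, n = 5) in the order of WT, heterozygous and homozygous embryos. Against WT embryos, the log2 fold change was 0.28 (standard error 0.10) in homozygous and 0.17 (standard error 0.10) in heterozygous embryos, with unadjusted p of 0.0103 and 0.0955 and adjusted p of 1 and 0.999 (limma).

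*Bach1*, the heme-sensitive repressor of *Hmox1*, lay between 2715 and 3274 in all 15 embryos. Its log2 fold change in homozygous against WT embryos was 0.00 with a 95% interval from -0.11 to 0.11 (adjusted p = 1, limma), among the narrowest of the 9 genes. The interval between heterozygous and WT embryos was -0.13 to 0.09.

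Of the small Maf genes, *Mafk* had normalized read counts of 512, 517, 589, 481 and 536 in WT, 543, 613, 490.9, 584 and 518 in heterozygous, and 586, 543, 639.7, 616 and 577 in homozygous embryos. The genotypes overlapped, with 2 homozygous embryos above the highest WT embryo. *Mafk* had a log2 fold change in homozygous against WT embryos of 0.17 (standard error 0.07, unadjusted p = 0.0343, adjusted p = 1, limma).

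*Mafg*, the most abundant small Maf gene, lay between 3276 and 4048 in all embryos, and its log2 fold change in homozygous against WT embryos was 0.03 with an interval from -0.09 to 0.15. *Maff*, the least abundant, lay between 73.6 and 127, with a log2 fold change of 0.04 and a wider interval from -0.30 to 0.38. Per kb of exon, *Mafg* made up 78.7%, *Mafk* 16.7% and *Maff* 4.61% of the small Maf transcripts in WT embryos and 77.3%, 18.1% and 4.60% in homozygous embryos.

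*Keap1* had normalized read counts between 1969 and 2303 in the 15 embryos. Its means were 2151 ± 139, 2160 ± 54.6 and 2089 ± 80.0 (SD, n = 5) in WT, heterozygous and homozygous embryos. *Keap1* had a log2 fold change in homozygous against WT embryos of -0.04 with an interval from -0.14 to 0.05 (adjusted p = 1, limma).

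**Figure D4:**
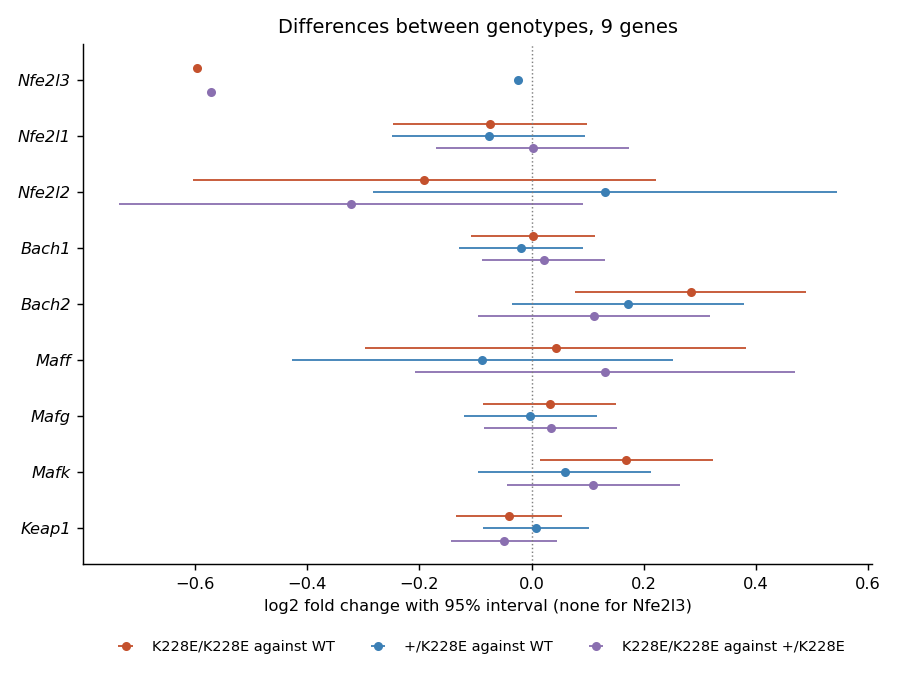
Log2 fold change (x axis, points) for the 9 genes (y axis) in the 3 comparisons, which share embryos, with 95% intervals (lines) for all genes but *Nfe2l3*, which was chosen by these values. The points of *Nfe2l3* lie at -0.60 and -0.57 in the comparisons with homozygous embryos and at -0.02 in heterozygous against WT embryos, and those of *Bach2* and *Mafk* in homozygous against WT embryos lie at 0.28 and 0.17.

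Between embryos of the same genotype, *Bach1*, *Bach2* and *Mafk* followed the level of forebrain and neuron markers. After subtraction of genotype means over the 15 embryos, r with the mean log2 level of the 10 markers was 0.809 for *Bach1* (rho 0.807), 0.796 for *Mafk* (rho 0.80) and 0.606 for *Bach2* (rho 0.614). Without the 2 embryos farthest from the median, r was 0.848, 0.736 and 0.80. Their r with *Tbr1*, computed in the same way, was 0.768, 0.749 and 0.678, and that of *Nfe2l3* was 0.384. The summed level of the 10 markers was 222804 to 252255 in WT, 226204 to 250996 in heterozygous and 223318 to 264310 in homozygous embryos, and 8 of the 10 markers had a positive log2 fold change in homozygous against WT embryos, with a median of 0.06. With scores for Hox and meningeal genes as added terms, the log2 fold change of *Bach2* in homozygous against WT embryos was 0.22 (standard error 0.09), and 0.28 without them. That of *Mafk* was 0.13 (standard error 0.07), and 0.17 without them. The part of tissue makeup in the values of *Bach2* and *Mafk* was not tested.

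*Nfe2l3* and *Nfe2l1* moved in opposite directions within genotypes. Their r was -0.721 over the 15 embryos (rho -0.786), the lowest of the 36 pairs among the 9 genes. The Hox score had an r of -0.671 with *Nfe2l3* (rho -0.471) and of 0.664 with *Nfe2l1* (rho 0.561). Without the 2 embryos farthest from the median of the score these values were -0.442 and 0.26. *Nfe2l3* was also negatively related to the meningeal score (r = -0.558, rho -0.614, and -0.344 without the 2 embryos), the endothelial score (-0.505, -0.621 and -0.285) and the microglia score (-0.491, -0.679 and -0.676). Of these relations, that to the microglia score was not weaker without the 2 embryos. The summed count of the 9 microglia markers was 1366 to 1690.3 in WT, 1166 to 1927 in heterozygous and 945 to 1903 in homozygous embryos, with no marker at 0 throughout a genotype. *Bach1* had an r of -0.724 with the Hox score, and -0.616 without the 2 embryos. For the pairs of *Bach1* with *Bach2* and *Mafk*, r was 0.738 and 0.726.

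Among 13541 other genes with a mean normalized read count of at least 50, the 5 whose log2 values were most like those of *Nfe2l3* over the 15 embryos were *Adamts3* (r = 0.929), *Sybu* (0.905), *Reln* (0.885), *Wnt7b* (0.879) and *Kcng1* (0.872). *Reln* encodes the secreted glycoprotein reelin, *Adamts3* a metalloproteinase that cleaves reelin, *Wnt7b* a Wnt ligand, *Sybu* the kinesin adaptor syntabulin and *Kcng1* a modulatory potassium channel subunit. The mean of *Adamts3* in WT, heterozygous and homozygous embryos was 1669, 1355 and 817. The corresponding means of *Sybu* were 3241, 3324 and 2475, and those of *Kcng1* were 503, 539 and 329. As for *Nfe2l3*, the means of *Adamts3*, *Sybu*, *Wnt7b* and *Kcng1* in heterozygous embryos were within 1 SD of WT embryos. For *Adamts3* this rests on a wide WT SD of 336, and its mean fell from 1669 in WT to 1355 in heterozygous embryos. The mean of *Reln* (10767 in WT and 10077 in heterozygous embryos) lay outside its WT SD of 136. Relative to the WT mean, *Adamts3* fell more than *Reln*. Of the other 8 genes of the family the closest was *Keap1*, at rank 981 with r = 0.418. This r includes the lower homozygous values by which *Nfe2l3* was chosen, so genes without them rank low. 

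After subtraction of genotype means, the 5 genes most like *Nfe2l3* were others, namely *Brd9* (r = 0.919), *Usp19* (0.916), *Tsga10* (0.912), *Fnbp4* (0.903) and *Zfp109* (0.900). Among the other genes of the family, r then ran from -0.721 for *Nfe2l1* to 0.543 for *Bach2*, at rank 1461. *Brd9* encodes a subunit of a BAF chromatin-remodeling complex and *Usp19* a deubiquitinating enzyme. The mean of *Brd9* was 3369, 3441 and 3453 and that of *Usp19* was 5915, 5982 and 6137 in WT, heterozygous and homozygous embryos. Both sets were picked from many genes for their r and carry no test.

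The genes around the CNC factors were examined in 4 lists. Of these genes, 0 passed the adjusted threshold in any of the 3 comparisons (limma, adjusted p of at least 0.996). The share of all tested genes past it was 0.127% between homozygous and WT, 0% between heterozygous and WT, and 0.0788% between homozygous and heterozygous embryos. Beside shares this small, a count of 0 says little about these lists. Over all tested genes the median log2 fold change between homozygous and WT embryos was -0.00226. The list of other CNC and large Maf factors had 5 tested genes, all with a negative log2 fold change and a median of -0.18. *Maf*, a large Maf factor with an activation domain, had a value of -0.10.

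Of 13 genes for the stability and processing of CNC factors, 6 had a positive and 7 a negative log2 fold change in homozygous against WT embryos, with a median of -0.01. *Fbxw7*, a substrate receptor of SCF ubiquitin ligases that targets NFE2L1 and NFE2L3, was at -0.13 (unadjusted p = 0.0294, adjusted p = 1, limma). It was the 1 gene of these 13 with an unadjusted p under 0.05 in this comparison, and the other 3 lists held 0 such genes, against 3.23% of all tested genes. *Fbxl17*, another F-box protein gene, was at 0.07. Between homozygous and heterozygous embryos 1 gene of the list had an unadjusted p under 0.05 in each direction, against 3.3% of all tested genes. *Fbxw7* was at -0.16 (unadjusted p = 0.0109, adjusted p = 0.996, limma), and *Cul3*, the scaffold of the ligase that KEAP1 serves, was at 0.10 (unadjusted p = 0.0208, adjusted p = 0.996, limma).

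The list of antioxidant response genes, textbook targets of NFE2L2, had 24 tested genes with 9 positive and 15 negative log2 fold changes in homozygous against WT embryos and a median of -0.04. The genes with the largest values among those of mean 50 or more were *Gsta4*, a glutathione transferase, at -0.26 (95% interval -0.87 to 0.36), and *Slc7a11*, the cystine transporter, at -0.23 (-0.85 to 0.39). In heterozygous against WT embryos the median of the list was 0.02, with 13 positive and 11 negative values.

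The 32 proteasome subunit genes, which NFE2L1 regulates, had log2 fold changes between -0.07 and 0.11 in homozygous against WT embryos, with 21 positive and 11 negative values and a median of 0.01. The largest were *Psmd13* at 0.11 and *Psmd14* at 0.09, both subunits of the regulatory particle. In heterozygous against WT embryos 26 were positive, with a median of 0.03, and in homozygous against heterozygous embryos 11 were positive, with a median of -0.01. Of all 16507 tested genes, 8063 and 8287 were positive in these comparisons. In both, 0 of the 32 subunits had an unadjusted p under 0.05 (limma).

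**Figure D5:**
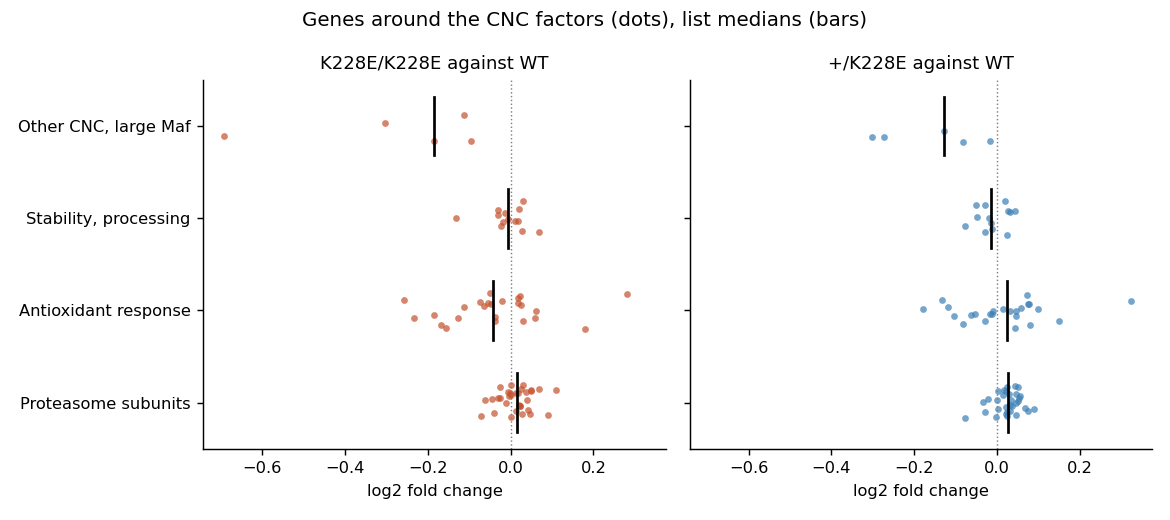
Log2 fold changes (x axes) of the genes of 4 lists around the CNC factors (y axis) in homozygous against WT embryos (left) and heterozygous against WT embryos (right), with 1 dot per gene and a bar at the median. The 32 proteasome subunits lie within -0.07 and 0.11 in the left panel, and the 24 antioxidant response genes spread more widely. The 5 other CNC and large Maf factors, some of them at low counts, are all below 0.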

How the data were processed

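Transcript abundance was estimated by the authors with Salmon 0.11.2 on GRCm38, summed to genes with tximport and divided by DESeq2 1.22.2 size factors in R 3.5.3, per the labels and the methods of the study. The deposited values are therefore a signal, normalized read counts for 19475 genes, which sum to 30.5 M to 31.8 M (mega) per embryo through the scaling. Raw reads were not used here, the sequencing depth behind a value is not known, and no counting interval is given.

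Genotype, replicate and sex came from the sample labels. All 15 embryos and no other columns were used, and no columns were identical. Within a genotype, r of the log2 values was 0.977 to 0.987. The labels do not name litters. The p-values rest on the spread between these embryos and treat them as independent, which cannot be checked without the litters.

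Values were tested as log2(value + 1) with limma 3.58.1 (trend, R 4.3.3) in 1 fit of the 3 genotypes, for 16507 genes whose mean was 5 or more, with Benjamini–Hochberg correction over all of them. The fold change of low genes is understated on this scale. Symbols were looked up by Ensembl gene ID, with 19452 genes matched, and exon lengths came from GENCODE (GRCm38).

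The 9 genes and all lists were chosen with earlier results of these data known. All 9 genes were named. In each list around them the 2 genes of mean 50 or more with the largest change between homozygous and WT embryos, and any gene past the threshold, were named, and so were the 5 genes with the highest r to *Nfe2l3* before and after removal of genotype means. A gene that this rule would name is not reported here. *Cul3*, *Hoxb7* and *Hoxc6* were named in addition after their values had been seen. The alternatives were other pseudocounts, filters and scalings, sex, replicate number or marker scores as further terms, robust eBayes, 2 genotypes alone, and leaving out each embryo. The fit without the highest Hox embryo of each genotype was added after the data had been seen.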

Additional observations from a re-analysis of the deposited data

How the results depend on the processing

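Under 27 alternative settings, of which 15 each left out 1 embryo, the number of genes past the adjusted threshold remained 0 among the 8 genes beside *Nfe2l3* and in each of the 4 lists around them (limma). Few of all tested genes passed in these settings either. Their number was 12 to 23 between homozygous and WT, 0 between heterozygous and WT, and 2 to 14 between homozygous and heterozygous embryos. The log2 fold change of *Nfe2l3* in homozygous against WT embryos ranged from -0.68 to -0.50 as embryos were left out one by one and from -0.69 to -0.58 in the other settings. Against heterozygous embryos the ranges were -0.63 to -0.48 and -0.63 to -0.54, and between heterozygous and WT embryos they were -0.11 to 0.04 and -0.06 to -0.02. *Nfe2l3* was chosen by these same values, so its ranges are a description and add no support. Of 528 alternative values of the other 8 genes, 36 had another sign than the reported value, all of them for a reported log2 fold change of at most 0.08 in size, and the smallest adjusted p was 0.50, for *Bach2* with the replicate block. Rescaling moved the median of all genes by at most 0.00885 on the log2 scale.

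The labels do not say whether replicate numbers pair the embryos. Same-numbered embryos of homozygous and WT had deviations with r from 0.0238 to 0.506. This r exceeded that with every other number for replicates 1 (0.357 against 0.334) and 3 (0.506 against 0.0735), and not for the others. Some pairs of the other comparisons had a negative r. In each genotype replicates 1 to 3 were female and 4 and 5 male, so the numbers also follow sex. With the replicate block the log2 fold change of *Nfe2l3* was -0.60 (standard error 0.11), and 0 of the other 8 genes passed. The count over all tested genes between homozygous and heterozygous embryos was 2 with the block and 13 without it. Leaving out any 1 of the 10 embryos gave 6 to 8. Between homozygous and WT embryos it was 21, and it was 12 in a fit of these 2 genotypes alone, 12 without WT replicate 1 or homozygous replicate 3, and 13 without WT replicate 2 or homozygous replicate 4. The causes of these shifts were not tested. With 5 embryos a genotype and the spread of *Nfe2l2* and *Maff*, log2 differences of -0.60 and 0.38 lie at or within the ends of their intervals.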
